A study of Mus musculus with 134 samples.

Results

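Mix is one of the 3 groups into which the authors clustered the transcriptomes of single mouse embryonic stem cells (mESCs) that had divided beside a bead coated with Wnt3a. The cells described here are those assigned to Mix (Cluster 0) in H3K27me3 experiments 1 to 7 and H3K4me3 experiments 1 to 6, as listed in the study's table of cells. They were 138 of the 380 cells that passed the study's filter on the number of genes in these 13 experiments, in which 576 cells had been picked. The other passing cells were 125 Proxi and 117 Dista cells. In the whole series 545 of 752 picked cells passed and 291 were Mix, and the remaining 153 Mix cells came from H3K27me3 experiments 8 to 10.

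All cells were ES-E14TG2a (E14) mESCs, a line derived from the 129/Ola strain, grown with serum and LIF. Beads carrying Wnt3a were present for 12 h in every experiment, so no group of cells without a bead was among them. After a division at a bead, the daughter cell touching the bead (proximal) and its sister (distal) were transferred by mouth pipette into separate wells. In scSET-seq, the nucleus of a cell goes to tagmentation guided by an antibody against H3K27me3 or H3K4me3, and its cytoplasmic RNA is reverse transcribed and tagmentated for gene expression. Only the RNA counts were analysed here, and the antibody therefore names the experiment and not a treatment of the RNA. The authors made the clusters from the expression of these same cells. For that reason, differences in genes, in groups of genes or in depth between Mix and the other clusters are given as a description, without a test. The labels do not say whether experiments came from separate cultures, and all cells belong to 1 line.

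Wnt3a is a secreted ligand that stabilises beta-catenin through Frizzled and LRP receptors and supports self-renewal of mESCs. A bead presents it on one side of the cell, so that the daughters inherit it unequally. Pou5f1, Nanog and Zfp42 are used as markers of the pluripotent state, and Axin2 is a feedback target of the pathway. Aebp2 is an accessory subunit of Polycomb repressive complex 2 (PRC2), the enzyme that places H3K27me3. Since the clusters take both positions, the question is what the Mix cells have in common besides their assignment.

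The number of Mix cells differed widely among experiments. Mix made up 15.4% to 75.0% of the passing cells in the 7 H3K27me3 experiments and 8.82% to 75.0% in the 6 H3K4me3 experiments. H3K4me3 experiment 4 gave the most, 32 Mix cells, 68.1% of its passing cells (95% Wilson interval 53.8% to 79.6%, for counting error only). H3K4me3 experiment 4 was followed by 27 in H3K4me3 experiment 3, 25 in H3K27me3 experiment 6, 11 in H3K4me3 experiment 6 and 10 in H3K27me3 experiment 5. The other 8 experiments held 2 to 7 Mix cells each. H3K4me3 experiment 1 stood apart, since only 4 of its 64 picked cells passed, 3 of them Mix.

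**Figure D1:**
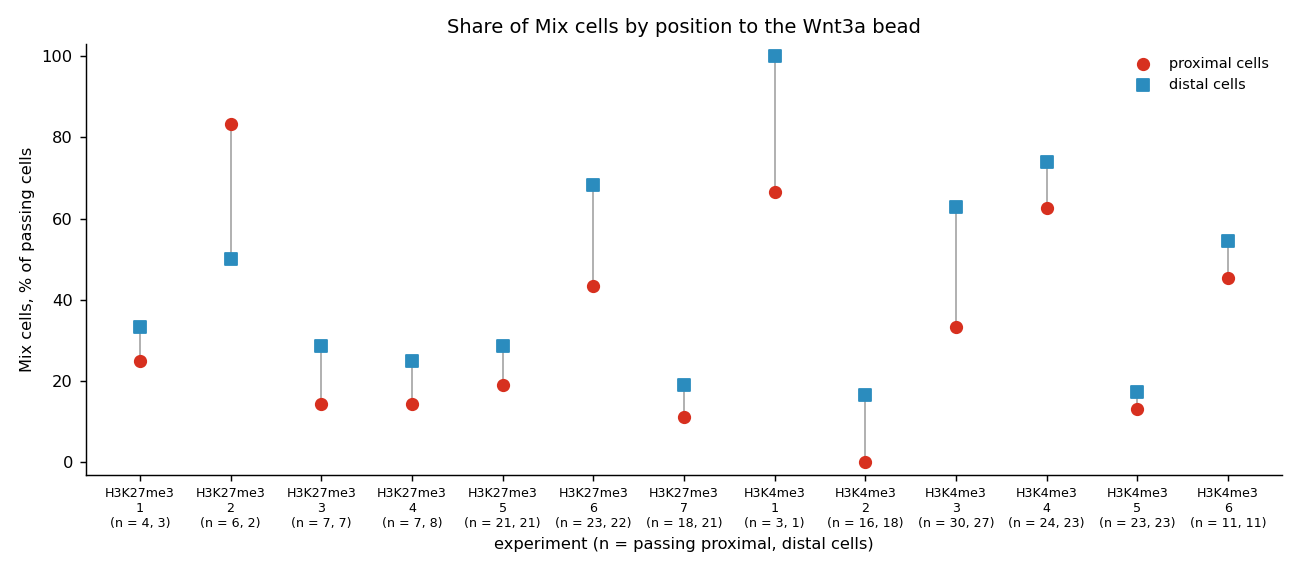
Mix cells as a percentage of the passing proximal cells (red circles) and passing distal cells (blue squares) in each of the 13 experiments, with the numbers of passing cells under each name. The distal square is higher in 12 of 13 experiments, and H3K27me3 experiment 2 is the exception.

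Mix cells were found on both sides of the division, with 59 proximal and 79 distal cells. On average over experiments, 33.2% of proximal and 44.5% of distal passing cells were Mix. The share was lower among proximal cells in 12 of 13 experiments, with a mean difference of -11.3 ± 16.1 percentage points (SD, n = 13; exact sign-flip permutation test over experiments, two-sided, p = 0.0298; the smallest p possible is 0.000244). In H3K27me3 experiment 2 the order was opposite, with 83.3% of 6 proximal and 50.0% of 2 distal cells. In the 10 experiments with at least 5 passing cells at each position, the mean difference was -13.8 ± 7.87 percentage points (SD, n = 10; exact permutation p = 0.00195, the smallest p possible). With all picked cells as the denominator, the difference was -4.17 percentage points (exact permutation p = 0.470, n = 13). Leaving out H3K27me3 experiment 6, or H3K4me3 experiment 1, 2 or 3, moved p above 0.05, to between 0.0518 and 0.0591 (exact permutation, n = 12). Proximal cells always sat in odd and distal cells in even columns of the plate, and position and index column cannot be told apart. The study named the clusters after their make-up of proximal and distal cells. Its methods do not name the groups behind the differential genes used to make the clusters. Whether position had a part in the clusters is therefore not known.

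The sister of a Mix cell could be of any cluster. Sisters were read from neighbouring wells of a plate row. This pairing was inferred from the layout of the plate. The study's table of cells does not state it in words, and pairs with both cells in Proxi or both in Dista have no place in the study's account of the clusters. So read, there were 47 Dista/Proxi, 21 Dista/Dista and 10 Proxi/Proxi pairs. The values on sisters hold only as far as neighbouring wells give the sisters. Of the 107 pairs with at least 1 Mix cell, 31 had Mix on both sides and 14 had a sister that did not pass the filter. In 37 pairs the Mix cell was distal and the proximal sister was Proxi. In 15 pairs the Mix cell was proximal and the distal sister was Dista. The reverse arrangements, Mix proximal with Proxi distal and Mix distal with Dista proximal, occurred in 5 pairs each. Whether Mix cells had Mix sisters more or less often than the other cells did is not settled with this pairing. In H3K27me3 experiment 1 and H3K4me3 experiments 1 and 2, only 1 Mix cell had a passing sister, which then could not be Mix. Their 0% is fixed by construction and lowers the mean over experiments. With at least 5 passing sisters of each kind, the difference was 2.12 ± 24.3 percentage points (SD, n = 7; exact sign-flip permutation test, two-sided, p = 0.781). It was positive in 3 and negative in 4 experiments. On average over experiments, 28.7% of Mix cells and 34.3% of the other cells with a passing sister had a Mix sister, a difference of -5.61 ± 46.3 percentage points (SD, n = 13; exact sign-flip permutation test, two-sided, p = 0.644). With the same inferred pairing, 40.4% of Proxi cells and 20.8% of Dista cells had a Mix sister, a difference of 19.6 ± 21.2 percentage points (SD, n = 10; exact sign-flip permutation test, two-sided, p = 0.0176). It was in this direction in 7 of 10 experiments. This result rests on the same cells as the difference by position and is not independent of it.

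The depth of Mix cells lay within that of the other cells. Their total counts ranged from 7439 to 1742260, with a median of 108826, against medians of 108957 in Proxi and 70492 in Dista cells. Within experiments, the median total of Mix cells was lower than that of the other cells in 6 and higher in 4 of the 10 experiments with at least 3 Mix cells and at least 3 other cells, namely H3K27me3 experiments 3 to 7 and H3K4me3 experiments 2 to 6. The comparisons of Mix with the other clusters below use these 10 experiments. Mix cells had a median of 2173.5 genes, and Proxi and Dista cells 2320 and 2096. When each cell was thinned to 5000 counts, the medians were 659 genes in Mix, 743 in Proxi and 863 in Dista cells. Within experiments, the thinned number of genes was lower in Mix than in the other cells in 9 of 10, with a mean log2 ratio of -0.23 ± 0.23 (SD, n = 10). A single gene held over 20% of the counts in 53 Mix cells and in 54 of the other cells. Depth differed far more between experiments than between clusters, with medians of 10138 to 425645 counts per Mix cell in the 10 experiments.

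The genes given as Mix markers separated the cluster only in part in these experiments. Levels are in CPM, counts scaled to the same total, in the sum of all Mix cells, or of all Proxi and Dista cells, of an experiment. Aebp2, on chromosome 6 from 140571184 to 140626993 of mm9, had 7.3 to 99369 CPM in Mix with a median of 8692, and 12.5 to 64200 CPM in the other cells with a median of 4187. It was higher in Mix in 7 of 10 experiments. All 5 H3K27me3 experiments had a higher level in Mix, and 3 of the 5 H3K4me3 experiments, numbers 2, 3 and 5, had a lower one, at 7.3 to 20.4 CPM in Mix against 39.5 to 76.4 CPM. Cracr2a, a calcium sensor gene on chromosome 6 from 127511354 to 127624252, ranged from 0 to 26093 CPM in Mix and from 0.1 to 20399 CPM in the others, and was higher in Mix in 6 of 10 experiments. 4930438A08Rik, on chromosome 11 from 58088330 to 58107792, was higher in 7 of 10. Peak1, a pseudokinase of the cytoskeleton, was lower in Mix in 9 of 10 experiments, with a median of 2916 CPM against 8849 CPM. Ranges of Mix and the other cells overlapped for all 4 genes, and their levels differed more between experiments than between clusters.

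More Mix than other cells had reads on these markers, except Peak1. Of the Mix cells, 64.5% had reads on Cracr2a, against 39.2% of Proxi and 34.2% of Dista cells. After thinning each cell to 5000 counts, the values were 55.1%, 31.2% and 22.2%. These shares pool experiments in which Mix cells were rare and common, and they carry that difference. Aebp2 had reads in 72.5% of thinned Mix cells, 56.8% of Proxi and 59.0% of Dista cells. Peak1 had reads in all 138 Mix cells before thinning, and in all Proxi and Dista cells. In the Mix cells of H3K27me3 experiments 8 to 10, Cracr2a, 4930438A08Rik and Aebp2 had reads in 100% of cells and Peak1 in 71.9%.

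The markers that the study names for Proxi (Ftl1, Rpl10a and Rnf7) and for Dista (Rps4x, Ndufb10 and Rpl37) were mostly lower in Mix than in the other cells together. Ftl1, the ferritin light chain, had a median of 976 CPM in Mix and 3088 CPM in the other cells, and was lower in Mix in all 10 experiments. With TMM scaling, which corrects CPM for the composition of the library, it was lower in 9 of 10. Rpl10a and Rps4x, both proteins of the ribosome, were lower in 9 of 10 experiments, with mean log2 differences of -0.75 and -0.65. Rpl37 was lower in 8, and Rnf7, a RING protein of cullin ubiquitin ligases, in 7. Ndufb10, a subunit of respiratory complex I, was lower in 9 and without counts on both sides in the remaining one. Set against each cluster alone, Ftl1 was lower in Mix than in Proxi in all 10 experiments and higher than in Dista in 1 of 9. Rnf7 was higher in Mix than in Proxi in 2 of 10 and than in Dista in 5 of 9, with mean log2 differences of -2.56 and -0.15. Rps4x, a Dista marker, was higher in Mix than in Proxi in 3 of 10 and than in Dista in 0 of 9, with -0.34 and -1.03. Rnf7 and Rps4x in Mix stood nearer to the cluster they do not mark, and Ftl1, with -0.97 and -1.08, did not. The study chose these markers from the same cells for their level in 1 cluster, and this choice favours a nearer level in the other.

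The counts of Mix cells also fell on other kinds of genes than those of Proxi and Dista cells. Genes spanning more than 100 kb of the genome, exons and introns together, number 2353 of the 18817 genes in the tables. They held 8.37% to 43.8% of the counts of Mix cells in the 10 experiments, with a median of 31.5%, and 8.37% to 45.9% of those of the other cells, with a median of 20.7%. The share was higher in Mix in 8 of 10 experiments, by 6.23 ± 5.88 percentage points (SD, n = 10). It was lower in H3K4me3 experiment 4, with 43.8% against 45.9% in the sums. The median single cell there had the opposite order, with 47.1% in Mix and 44.1% in the others. In H3K27me3 experiment 3 the share was the same within rounding, with 8.37% on both sides. The widest gap was that of H3K27me3 experiment 7, with 33.7% in Mix and 15.7% in the other cells. It rests on the summed counts of 6 Mix cells, and the median single cell held 17.9% in Mix and 16.3% in the others. Against Proxi alone the share in Mix was higher in 9 of 10 experiments, and against Dista alone in 8 of 9.

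Silent genes were counted more in Mix as well. These are 4865 genes with less than 0.1 RPKM, read counts scaled for exon length and total, in both ligation-based RNA-seq libraries of bulk mESCs of the same series, libraries that took no part in the clustering. They held a median of 13.8% of the counts of Mix cells and 8.14% of those of the other cells, and the share was higher in Mix in 9 of 10 experiments, by 4.34 ± 4.09 percentage points (SD, n = 10). The exception was H3K27me3 experiment 3. Of the long genes, 749 are silent, and their share was higher in Mix by 3.08 ± 2.55 percentage points (SD, n = 10), in 9 of 10 experiments. The 1604 long genes that are not silent had a higher share by 3.15 ± 4.07 percentage points (SD, n = 10), also in 9 of 10.

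Ribosomal protein genes, which are short and among the most abundant mRNAs of a growing cell, moved the other way. The 79 genes held 1.39% to 12.3% of the counts in Mix, with a median of 4.83%, and 2.22% to 13.7% in the other cells, with a median of 8.79%. The share was lower in Mix in all 10 experiments, by a mean of 2.51 percentage points (difference -2.51 ± 1.94, SD, n = 10). H3K27me3 experiment 7 had the largest gap, with 5.56% against 12.8% in the sums. Its median single cell held 10.5% among 6 Mix cells and 13.7% among the others. The 3 Mix cells of H3K4me3 experiment 1, which had a single Proxi cell beside them and were not compared, held 15.9% against 6.91%, the opposite order.

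**Figure D2:**
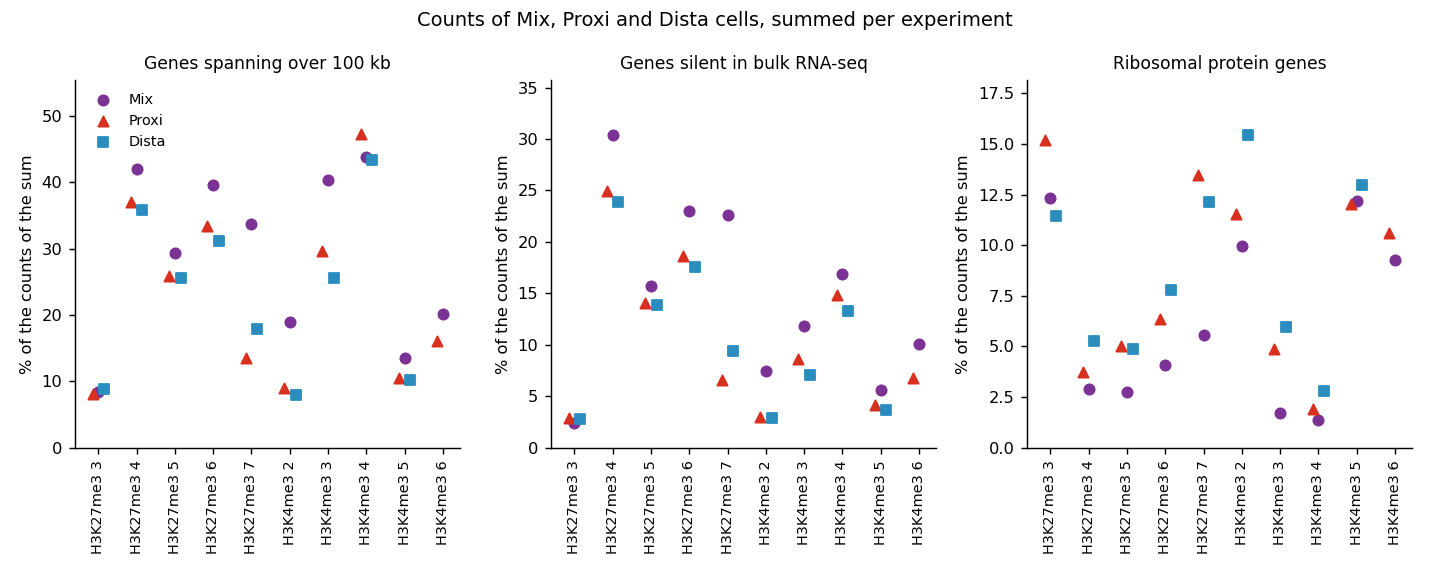
Percentage of counts on genes spanning over 100 kb, on genes silent in bulk RNA-seq and on ribosomal protein genes, in the summed Mix (purple circles), Proxi (red triangles) and Dista (blue squares) cells of each of the 10 compared experiments. A cluster with fewer than 3 cells in an experiment has no point, Mix lies above the others in most experiments in the first and second panels, and ribosomal protein genes in Mix lie below the sum of Proxi and Dista cells in all 10.

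The shift followed the span of the gene. Genes of up to 10 kb had a lower share in Mix by 7.85 percentage points (difference -7.85 ± 6.11, SD, n = 10) and were lower in 9 of 10 experiments. Genes of 10 to 30 kb had a difference of -2.14 ± 1.86 percentage points (SD, n = 10) and were lower in all 10. From 30 kb on the differences were positive, with 1.50 ± 2.84 percentage points for 30 to 100 kb and 2.52 ± 2.68 for 100 to 300 kb (SD, n = 10), both higher in 8 of 10 experiments. Genes over 300 kb had 3.71 ± 4.39 percentage points (SD, n = 10) and were higher in 9 of 10. The counts include reads on introns, which make up most of a long gene, and the counts do not separate introns from exons. Long genes make up 12.5% of the genes and 60.1% of the summed span of all genes.

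**Figure D3:**
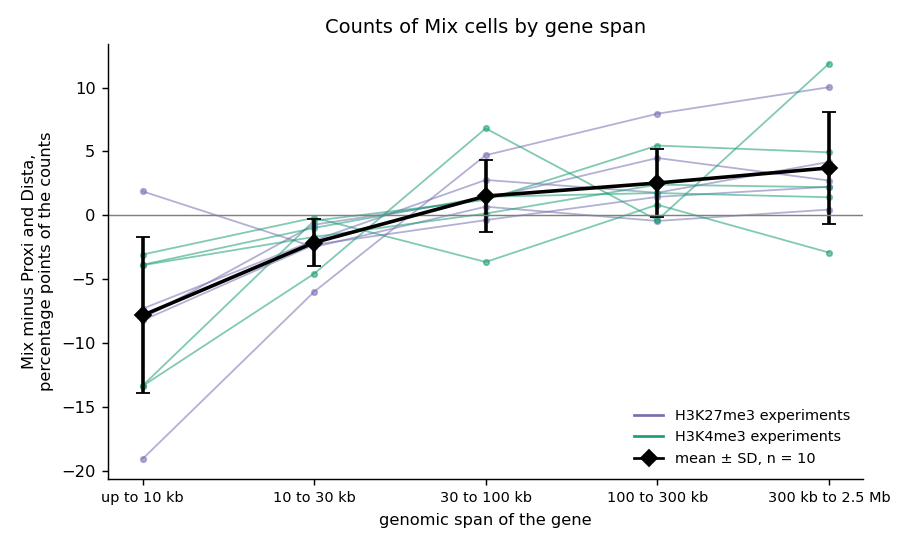
Difference in the percentage of counts between Mix cells and Proxi and Dista cells together, by the genomic span of the gene, for 5 H3K27me3 (violet) and 5 H3K4me3 (green) experiments, with the mean and SD in black. The mean runs from -7.85 percentage points for genes of up to 10 kb to 3.71 for genes over 300 kb.

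The same pattern was present in single cells. Of 127 Mix cells in the 10 experiments, 97 had a share of counts on long genes above the median of the other cells of their experiment, and 13 had one above every other cell. For ribosomal protein genes, 106 of 127 Mix cells lay below the median of the other cells and 30 below every one of them. In H3K27me3 experiment 6, all 25 Mix cells were below that median, and in H3K4me3 experiment 4 the number was 29 of 32. Among Mix cells of one experiment, the 2 shares ran against each other, with Spearman's correlation from -0.463 over 32 cells in H3K4me3 experiment 4 to -0.964 over 7 cells in H3K4me3 experiment 5. These are 8 descriptions across cells that share a library, and both shares are parts of the same total. The cells formed a range, not 2 separate sets. In H3K4me3 experiment 3, Mix cells went from 16.5% to 46.6% on long genes and from 0.4% to 8.6% on ribosomal protein genes. The share on long genes went with a lower total count among Mix cells of H3K27me3 experiment 6, at -0.866 (Spearman) over 25 cells, and with a higher one in H3K4me3 experiment 3, at 0.791 (Spearman) over 27 cells.

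**Figure D4:**
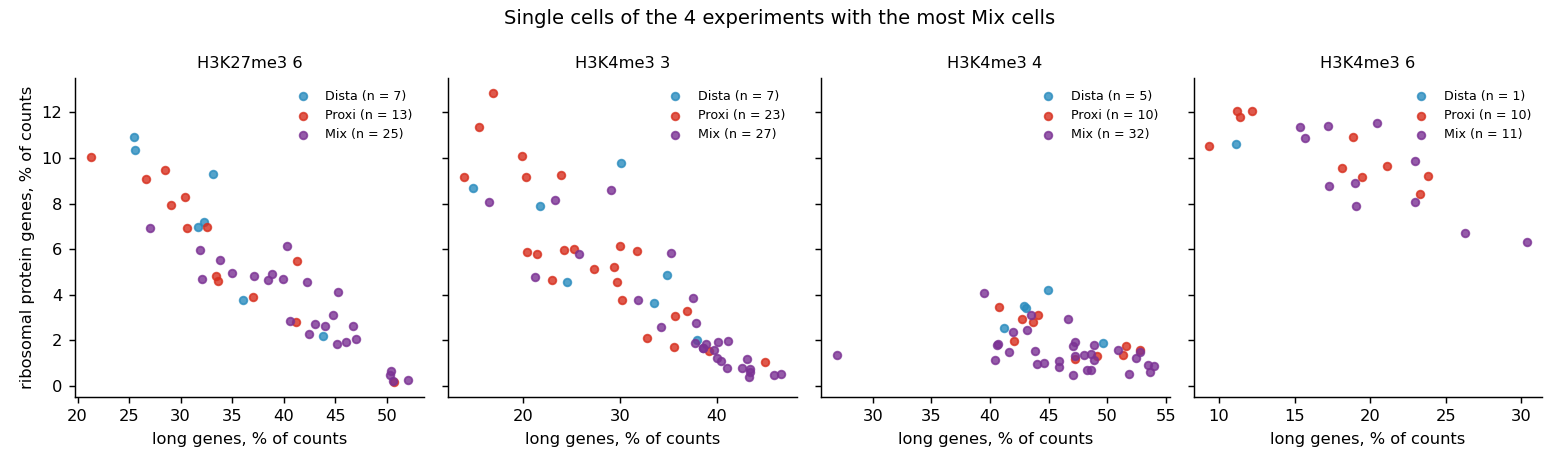
Each point is a cell of one of the 4 experiments with the most Mix cells, by the percentage of its counts on genes spanning over 100 kb (horizontal) and on ribosomal protein genes (vertical), coloured by cluster. A Mix cell (purple) has the highest share on long genes in all 4 panels, and the lowest on ribosomal protein genes in H3K4me3 experiments 3, 4 and 6. In H3K27me3 experiment 6 the lowest is that of a Proxi cell, 0.149% against 0.207% in Mix. Mix cells overlap with Proxi (red) and Dista (blue) cells in all 4 panels.

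No difference between the antibodies was detected in these shares. The difference between Mix and the other cells was 5.50 percentage points for long genes in 5 H3K4me3 and 6.95 in 5 H3K27me3 experiments (exact permutation test, two-sided, p = 0.738). For ribosomal protein genes it was -1.86 and -3.16 percentage points (exact permutation p = 0.341, 5 against 5 experiments), and for silent genes 3.26 and 5.41 (exact permutation p = 0.563, 5 against 5). The Mix cells of the later H3K27me3 experiments 8 to 10 held 37.2% to 47.0% on long genes, 26.7% to 30.9% on silent genes and 1.42% to 4.63% on ribosomal protein genes. These are shares of summed counts. The median single Mix cell of experiments 8, 9 and 10 held 0.031%, 0.037% and 0.028% on ribosomal protein genes, and single cells reached 14.4%, 45.4% and 44.2%. In the 10 compared experiments the median Mix cell held 1.34% to 14.3%.

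For single genes, 3555 genes passed a filter on low counts in the 10 experiments. Each gene was compared within experiments as log2 CPM with a prior count of 2. The level was higher in Mix in all 10 experiments for 24 genes, 0.675% of those tested, and lower in all 10 for 82 genes, 2.31%. The median difference over all 3555 genes was -1.40, and 630 genes (17.7%) had a mean above 0. With TMM the median was -1.0, and 48 genes (1.35%) were higher and 39 (1.1%) lower in all 10. Of the 24 and 82 genes, 23 and 39 were among these. When both sums of an experiment were thinned to the same total, 18 genes were higher and 58 lower in all 10, and when every cell was thinned to 5000 counts, 0 were higher and 9 lower. The direction was judged from signs alone, and no test of a gene between the clusters is given.

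Of the 24 genes higher in Mix in every experiment, 16 span over 100 kb and 12 are silent in the bulk libraries. Of all 3555 genes, 22.3% are long and 9.87% silent. The median span was 222.6 kb, against 27.9 kb for all 3555 genes and 14.4 kb for the 82 lower genes, of which 5 are long and none, 0 of 82, is silent. Both groups were chosen on Mix and the other cells' levels, and the spans and bulk levels were not used for the choice.

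The largest mean difference was that of Setbp1, which encodes a SET-binding protein. It had 24.7 to 828 CPM in Mix, with a median of 161, and 0 to 312 CPM in the other cells, with a median of 26.1. The mean log2 difference was 3.22 ± 3.28 (SD, n = 10), and the ranges overlapped. In H3K27me3 experiment 4 the difference rests on 1 count in Mix and 0 in the others, and 4 experiments had differences above 5.

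Genes of neurons and cell contacts were among the 12 with the largest means. Anks1b, a scaffold of the postsynaptic density spanning 1099.8 kb, had 2.6 to 1000.4 CPM in Mix with a median of 28.2, and 0.8 to 47.4 CPM in the others with a median of 6.7, and a mean log2 difference of 2.03 ± 0.96 (SD, n = 10). Lsamp, a neural adhesion protein spanning 2197 kb, had a median of 180 CPM in Mix and 62.3 CPM in the others and a mean log2 difference of 1.58 ± 1.79 (SD, n = 10), although the bulk libraries held 0.00 RPKM. Ptpro, a receptor tyrosine phosphatase, had a mean log2 difference of 1.48. Setbp1, Anks1b and Lsamp are long, and Lsamp is the only one of the 3 that the bulk threshold calls silent.

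Others code for regulators of signalling. Jag1, a ligand of Notch, had 12.0 to 23586 CPM in Mix with a median of 3881, and 8.2 to 16305 CPM in the others with a median of 1815. It had reads in 132 of 138 Mix cells (95.7%), 90.4% of Proxi and 94.9% of Dista cells. Its mean log2 difference was 1.07 ± 0.85 (SD, n = 10). Sos2, an exchange factor that activates Ras, had medians of 4302 and 2426 CPM and a mean log2 difference of 1.18. It had reads in all 138 Mix cells, in 99.2% of Proxi and in 100% of Dista cells. Otud7a, a deubiquitinase, had medians of 2178 and 643 CPM and a mean log2 difference of 1.20 ± 1.22 (SD, n = 10). Arhgap32 had medians of 1368 and 593 CPM. Phlpp2, a phosphatase of Akt, had a mean log2 difference of 1.29, Nek11, a kinase of the NIMA family, one of 1.16, and Nckap5 one of 1.12. Ifngas1, a noncoding RNA next to the interferon gamma gene, had medians of 106 and 31.4 CPM and a mean log2 difference of 1.22 ± 0.78 (SD, n = 10), with 0.00 RPKM in bulk. The counting was without strand as far as is known, and reads of Ifngas1 and of genes on the other strand cannot be told apart.

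The 12 genes with the lowest means among those lower in every experiment included genes of mitochondria, ribosome assembly and RNA processing. Crabp1, a binding protein of retinoic acid, had 0 to 15.3 CPM in Mix with a median of 0.2, and 4.2 to 129 CPM in the other cells with a median of 52.1. It was without counts in the Mix cells of 5 experiments. Mrps15, of the mitochondrial ribosome, had medians of 0.3 and 37.7 CPM, and Hint2, a mitochondrial hydrolase, medians of 0.4 and 25.0 CPM. Mthfd2, an enzyme of mitochondrial folate metabolism, had 0 to 14.9 CPM in Mix and 13.2 to 111 CPM in the others, with medians of 0.7 and 27.1. Rrp9, a protein of the U3 particle that processes ribosomal RNA, had medians of 6.5 and 91.1 CPM and reads in 36.96% of Mix, 56.8% of Proxi and 47.0% of Dista cells. Xab2, a splicing protein, had 0 to 44.1 CPM in Mix and 30.6 to 517 CPM in the others, with medians of 8.9 and 158. Daxx, a chaperone of histone H3.3, had medians of 0.4 and 39.1 CPM, and its difference was smaller against Proxi alone, with a mean log2 of -0.75. Ola1, Washc2, Septin7, Trim2 and Phf23 completed the 12 genes.

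The mean log2 differences of these 12 genes ranged from -4.73 for Crabp1 to -4.01 for Phf23. All 12 genes were at 0 in the Mix cells of 1 to 5 experiments, so the size of the difference depends on the prior count, and it was -3.48 to -2.68 when both sums were thinned to the same total. With TMM, Crabp1, Mthfd2 and Trim2 were lower in 9 of 10 experiments. Most Mix cells had no read on these 12 genes. Mrps15 had reads in 15.9% of Mix, 24.0% of Proxi and 22.2% of Dista cells, and Hint2 in 10.1%, 24.0% and 13.7%.

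**Figure D5:**
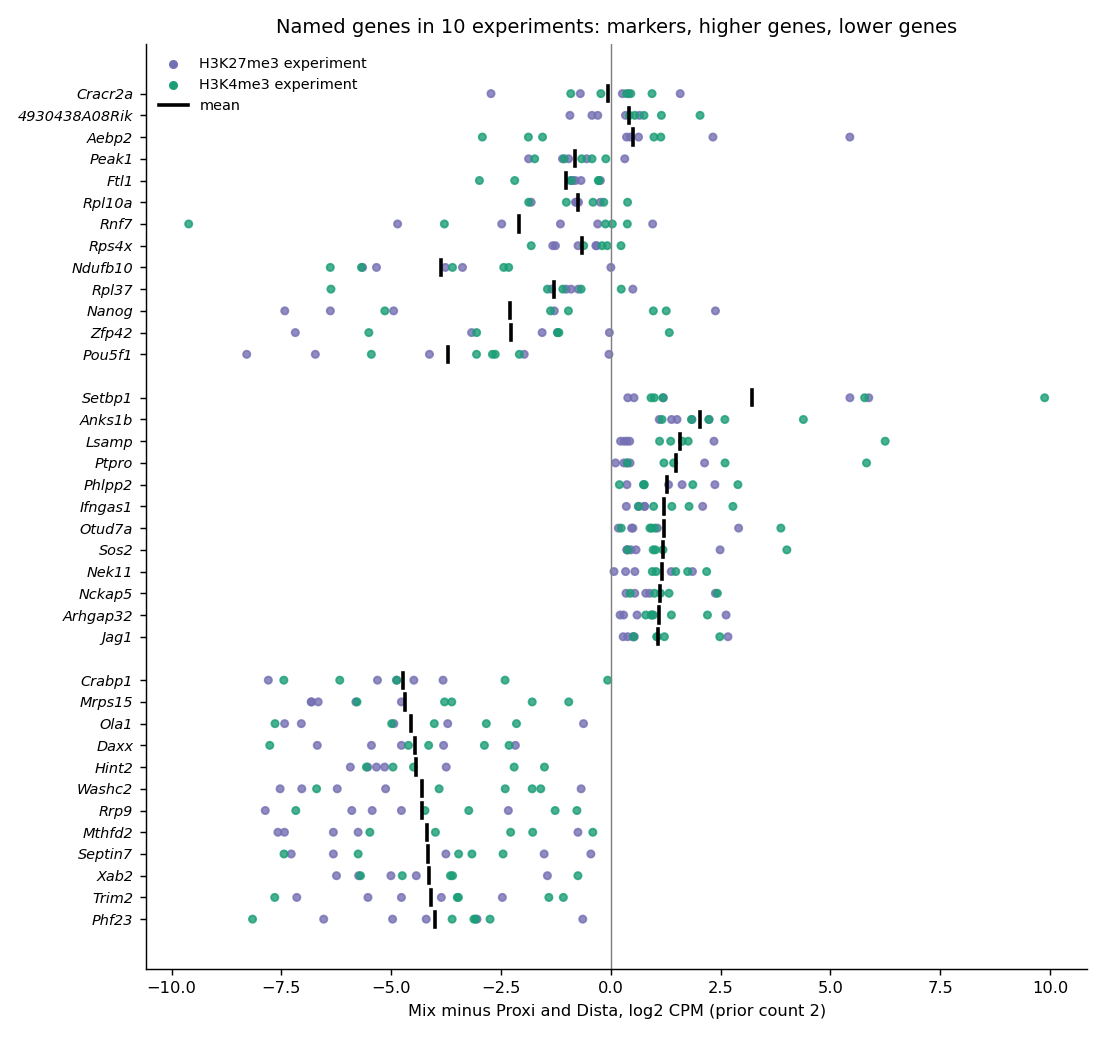
Difference in log2 CPM between Mix cells and Proxi and Dista cells together in each of the 10 experiments, for marker genes, for the 12 genes with the highest and the 12 with the lowest mean among genes with the same direction in all 10. Points are H3K27me3 (violet) and H3K4me3 (green) experiments and bars are means, which run from 3.22 for Setbp1 to -4.73 for Crabp1, and the 4 marker genes of Mix lie around 0.

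The promoters of 4 of these genes are shown as the starts of genes that moved together. Promoters rich in CG dinucleotides are typical of genes used in most cell types. RefSeq promoters of GRCm38.p6, 250 bases before to 50 bases after the start, matched 11 of the 12 higher genes and all 12 lower genes. Otud7a was chosen for a promoter rich in CG dinucleotides and Ifngas1 for one poor in them among the higher genes, and Rrp9 and Mthfd2 as genes of the lower group. CG is in capitals.

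Otud7a (chr7:63444522-63444821, + strand): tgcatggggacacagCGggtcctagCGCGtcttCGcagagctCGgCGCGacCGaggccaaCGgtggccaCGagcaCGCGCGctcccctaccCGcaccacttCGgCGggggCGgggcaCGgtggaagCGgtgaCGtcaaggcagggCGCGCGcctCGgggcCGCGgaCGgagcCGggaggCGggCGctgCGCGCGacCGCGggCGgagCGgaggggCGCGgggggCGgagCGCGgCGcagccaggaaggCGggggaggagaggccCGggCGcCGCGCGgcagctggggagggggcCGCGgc

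Ifngas1 (chr10:118556476-118556775, - strand): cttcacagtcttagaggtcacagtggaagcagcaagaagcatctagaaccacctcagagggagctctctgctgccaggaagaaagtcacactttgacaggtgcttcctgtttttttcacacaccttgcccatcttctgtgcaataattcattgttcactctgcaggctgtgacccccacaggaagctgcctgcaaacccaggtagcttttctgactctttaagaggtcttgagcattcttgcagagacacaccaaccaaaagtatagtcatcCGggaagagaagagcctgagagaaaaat

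Rrp9 (chr9:106477059-106477358, + strand): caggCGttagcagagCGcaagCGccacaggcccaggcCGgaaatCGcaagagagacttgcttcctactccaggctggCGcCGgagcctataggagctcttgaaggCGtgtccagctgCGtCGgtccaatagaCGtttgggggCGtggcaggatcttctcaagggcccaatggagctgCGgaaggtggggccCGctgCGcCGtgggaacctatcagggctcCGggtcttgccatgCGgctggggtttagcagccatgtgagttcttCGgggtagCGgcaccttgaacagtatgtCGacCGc

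Mthfd2 (chr6:83317555-83317854, - strand): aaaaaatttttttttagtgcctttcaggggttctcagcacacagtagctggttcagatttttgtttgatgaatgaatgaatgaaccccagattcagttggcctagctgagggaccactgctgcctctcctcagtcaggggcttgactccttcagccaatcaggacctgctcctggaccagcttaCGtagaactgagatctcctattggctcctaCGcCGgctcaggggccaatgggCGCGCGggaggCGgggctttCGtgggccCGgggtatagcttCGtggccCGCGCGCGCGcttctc

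Otud7a had 51 CG in 300 bases and Ifngas1 had 1, while Rrp9 had 22 and Mthfd2 15. The 11 higher genes had 1 to 54 CG with a median of 22, and the 12 lower genes 14 to 33 with a median of 17. Over all 32851 promoters of the 27025 genes of the table the median was 7, and 94.6% of promoters had at least 1 CG. The higher and lower genes were counted with 1 promoter each. The CG dinucleotide reads the same on both strands. The number of CG did not part the higher from the lower genes, and the build of these sequences differs from the mm9 of the counts.

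Genes of the pluripotent state were mostly lower in Mix, and their levels differed widely. Trim28, a core factor, had medians of 1101 CPM in Mix and 1687 CPM in the other cells, and was lower in 8 of 10 experiments. The list has 10 core factors, of which 8 passed the filter. All 8 had a mean below 0, with a median of -2.09, and Pou5f1 was lower in all 10 experiments, with 0 to 19.7 CPM in Mix and 0.9 to 182 CPM in the others. The median of all genes tested was -1.40. Pou5f1 was also lower in 9 of 10 experiments with TMM. Nanog was higher in Mix in 3 and lower in 7 experiments, with medians of 26.6 and 170 CPM. Zfp42 was lower in 9 of 10, with medians of 48.8 and 159 CPM. By share of counts, core factors were lower in Mix in 8 of 10 experiments and naive genes, such as Klf4, Esrrb and Zfp42, in 9 of 10. Fibroblast, trophoblast, primitive endoderm and early lineage markers held medians of 0.001% to 0.008% of the counts of Mix cells. Their highest values in any of the 10 experiments were 0.012%, 0.052%, 0.121% and 0.031%, and in the other cells 0.016%, 0.013%, 0.018% and 0.009%. None of the 12 fibroblast, 8 trophoblast and 15 early lineage markers passed the filter on low counts.

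Most genes of the Wnt pathway did not pass the filter on low counts. Of 14 feedback targets, 3 passed the filter. Axin2 did not pass, and had reads in 2 of 138 Mix cells, 3.2% of Proxi and 4.3% of Dista cells. Nkd1, an inhibitor of Dishevelled, was higher in Mix in 8 of 10 experiments with a mean log2 difference of 0.77, and Ccnd1, cyclin D1, was lower in 7 with -2.44. Of 17 genes of the beta-catenin pathway, 5 passed, and Ctnnb1, beta-catenin itself, was lower in 9 of 10 experiments with -1.86. Gsk3b, the kinase that marks beta-catenin for destruction, had a mean of 1.58 and was higher in 7 of 10. Neither list was higher or lower in Mix in every experiment.

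The PRC2 subunits held a median of 0.916% of the counts in Mix and 0.508% in the other cells, higher in Mix in 7 of 10 experiments. Aebp2, a marker given with the cluster, alone had medians of 8692 and 4187 CPM and was also higher in 7 of 10. The share of the list therefore does not describe the other subunits. Of the 8 subunits that passed the filter, Aebp2 was the 1 with a mean above 0, where 17.7% of all genes had one. The median of the 8 was -2.01 (TMM -1.79), against -1.40 (TMM -1.0) over all genes. Suz12 and Eed, core subunits, were lower in 8 and 9 experiments with -2.45 and -3.24, and Ezh2, the catalytic subunit, was lower in 6 with -1.89.

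Further lists of short genes for cell growth were lower in Mix by share of counts. Genes of the respiratory chain were lower in all 10 experiments, with medians of 0.737% and 1.25% of the counts (difference -0.389 ± 0.309 percentage points, SD, n = 10). Translation factors were lower in all 10, with medians of 0.623% and 1.23%, and proteasome subunits were lower in all 10, with medians of 0.257% and 0.529%. By genes, 77 ribosomal protein genes passed the filter and none had a mean above 0, yet their median log2 difference of -0.85 was nearer to 0 than the -1.40 of all genes. Rpl29 and Rpl34 had means of -3.04 and -2.64, and Rpl19 had -0.17. Pabpc1, the poly(A)-binding protein, was lower in all 10 experiments with -2.05. Many ribosomal protein genes have near-identical pseudogenes, and how reads that match several places were treated in the single cells is not given in the sources used here.

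Cell-cycle genes had little of the counts in any cluster. The S phase list held 0.112% in Mix and 0.209% in the other cells at the median, and was lower in Mix in 9 of 10 experiments. The G2 and M phase list held 0.108% and 0.155%, and was lower in 8. Rrm2, of nucleotide synthesis, and Ccna2 and Kif11, of mitotic entry and the spindle, were lower in all 10 experiments with means of -3.36, -3.43 and -3.06. Genes of the heat-shock and early response, with Hsp90aa1 lower in all 10 experiments, held 0.335% and 0.728% at the median. Malat1, a nuclear RNA, had a mean of -2.43 and was lower in 8. Rn45s, the precursor of ribosomal RNA, held medians of 2.87% and 7.05% of the counts and was lower in Mix in 8 of 10.

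Genes of the synapse and neural adhesion were the list with the most members higher in Mix. Of 27 genes 22 passed the filter, all of them long and 77.3% silent in bulk. The median log2 difference was 0.46 (TMM 0.82), against -1.40 (TMM -1.0) over all genes, and 14 of 22 had a mean above 0, against 17.7% of all genes. Of the 232 long silent genes that passed the filter, the class of most of these members, 149 had a mean above 0 and the median was 0.23 (TMM 0.55). Lsamp and Csmd3 were higher in all 10 experiments, the second with a mean of 0.94. Ncam2 and Cntn4, adhesion proteins of the immunoglobulin family, were higher in 9, with 1.45 and 0.87, and Ctnna2 was higher in 7 with 1.70. Nrg3 and Nlgn1 were lower in 7, with -1.71 and -1.61. The list held a median of 0.724% of the counts in Mix and 0.340% in the other cells. For comparison, the 794 long genes that passed the filter had a median of -0.23 (TMM 0.10, the other direction), and the 351 silent genes one of 0.26 (TMM 0.55). Whether synapse genes differ from other long and silent genes was not tested.

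Among Mix cells, those proximal and those distal to the bead could be compared with a test. As far as the study's methods say, position was not used for the clusters. The methods do not name the groups behind the differential genes used for dimensional reduction. Counts were summed by position in the 6 experiments with at least 3 Mix cells on each side, and tested with edgeR's quasi-likelihood test with the experiment as a block. No gene was called among 1783 at an adjusted p of 0.05 (0, or 0%), and the smallest adjusted p was 0.824. An unadjusted p below 0.05 was reached by 92 genes. DESeq2 called 51 and edgeR without the filter on low counts 3 of 15191 genes. In simulated data of this comparison, 19.4% of genes changed by 4-fold, 76.1% at 16-fold and 100% at 256-fold were recovered.

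The 3 genes in each direction with the smallest p are named as values only. Pa2g4, a growth-related RNA-binding protein, had 55.3 to 860 CPM in proximal and 3.5 to 281 CPM in distal Mix cells and was higher in proximal cells in 5 of 6 experiments. Nucks1, a nuclear DNA-binding protein, was higher in proximal cells in 6 of 6, with medians of 107 and 3.99 CPM. Eif3b, a translation initiation factor, was higher in 5 of 6, with medians of 457 and 51.7 CPM. Dkc1, the pseudouridine synthase of small nucleolar particles, was higher in distal cells in 6 of 6 experiments, with 53.4 to 130 CPM against 0 to 14.3 CPM. Hsph1, a heat-shock protein, was higher in distal cells in all 6, and Dgkd, a diacylglycerol kinase, in 5 of 6. All 6 had an adjusted p of 0.824 (edgeR, Benjamini-Hochberg).

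No difference between the sides was detected in the groups of genes. Proximal minus distal, the paired difference was -0.888 ± 5.09 percentage points for long genes (SD, n = 6). It was 0.144 ± 1.72 for ribosomal protein genes and 0.0201 ± 2.32 for silent genes (SD, n = 6). Long genes held 31.0 ± 13.3% of the counts in proximal and 31.8 ± 12.3% in distal Mix cells (SD, n = 6; exact sign-flip permutation test, two-sided, p = 0.813; the smallest p possible is 0.0313). Ribosomal protein genes held 5.33 ± 4.76% and 5.18 ± 4.29% (SD, n = 6; exact permutation p = 0.844), and silent genes 13.9 ± 7.30% and 13.9 ± 5.20% (SD, n = 6; exact permutation p = 0.969). With 4 such lists compared, each adjusted p was 0.969 (exact permutation, Benjamini-Hochberg).

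Mix cells of H3K4me3 and of H3K27me3 experiments were compared in 6 against 6 experiments with at least 3 Mix cells. In edgeR, 27 of 1957 genes (1.38%) were called at an adjusted p of 0.05, 15 (0.766%) higher and 12 (0.613%) lower in H3K4me3 experiments. In most of the genes named here a single experiment carried the difference. For Zdhhc2, Coro2b, Adgrb3 and Tpgs1, 99.0% to 99.6% of all counts came from 1 sum. Pcca, an enzyme of propionate breakdown, had 0 to 200524 CPM in H3K4me3 and 0 to 30.5 CPM in H3K27me3 experiments, with medians of 9230 and 1.3 CPM (log2 fold change 14.4, adjusted p = 0.0422, edgeR). Arid1b, a subunit of a BAF remodelling complex, had 0 to 24.0 CPM in H3K4me3 and 21.7 to 3368 CPM in H3K27me3 experiments, with medians of 4.98 and 294 CPM (log2 fold change -6.88, adjusted p = 0.0323, edgeR). Gpc3, a glypican, was higher in H3K4me3 experiments and had 70.1% of its counts in 1 sum. Only 1 of the 27 genes had groups that did not overlap, against 4 of all 1957. The count was 0 of 2570 genes with experiment numbers as a block, and it was 17 to 88 when single experiments were left out. The experiments whose absence moved it by over 1.5 times were H3K27me3 2 (17 genes), 3 (53) and 5 (50) and H3K4me3 4 (88) and 6 (43). Antibody and experiment batch cannot be told apart, since each experiment used one antibody.

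By gene class, silent genes held 9.02 ± 5.17% of the counts of Mix cells in H3K4me3 and 19.2 ± 9.49% in H3K27me3 experiments (SD, n = 6 each; exact permutation test, two-sided, p = 0.0455), which did not pass after adjustment over 4 lists (adjusted p = 0.182, exact permutation). Long genes held 24.3 ± 14.4% and 32.2 ± 12.6% (SD, n = 6 each; exact permutation p = 0.323), and ribosomal protein genes 8.41 ± 5.80% and 4.91 ± 3.84% (SD, n = 6 each; exact permutation p = 0.245).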

How the data were processed

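Gene expression of single cells was measured by scSET-seq. Per the labels and the study's methods, reads were trimmed (Trim Galore 0.6.4) and aligned to mm9 (STAR 2.5.4b), and zUMIs counted those on exons and on introns. What the authors deposited are raw counts for each gene in each cell, in 1 table of 17622 and 1 of 17142 genes (18817 in all), without molecular identifiers and without normalization. PCR copies are counted as reads, and intervals cover counting error only. Bulk ligation-based libraries, which the authors counted on exons with featureCounts 2.0.0, are deposited as counts too, and RPKM were calculated from them here. The tables place genes by name, and positions and spans are those of the bulk annotation.

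The study kept cells with a gene number between 1000 and 5000, which gave the same 545 cells as the study's table. Cluster (made by the authors with Seurat 3.2.1), position and well were taken from that table, and no other value. No doublet caller was run, since cells were picked one by one. The 576 picked cells of the experiments described here share 96 barcodes, 80 of them used in more than 1 of these experiments. The 138 Mix cells carry 60, of which 39 occur in more than 1 experiment.

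Counts were summed per experiment and cluster or position over at least 3 cells. Genes passed edgeR's filter on low counts and were compared as log2 CPM with a prior count of 2; a difference was set to 0 where both sums were 0. The experiment is the replicate. edgeR 4.0.16 with TMM and the quasi-likelihood test, adjusted after Benjamini-Hochberg, compared positions, with the experiment as a block (deviations of both sums of an experiment had correlations of 0.453 to 0.605), and antibodies. Shares were tested with exact permutations over experiments. Named genes were the markers, Nanog, Zfp42, Pou5f1 and Axin2, the 12 largest mean differences in each direction among genes with 1 direction in all experiments, and, for tests, up to 8 per direction below an adjusted p of 0.05 or else the 3 smallest p. Further members of lists are named as examples, chosen after their values were seen. The members and gene lists were chosen with earlier results of these data known.

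Alternatives were DESeq2 1.42.0, its size factors, no filter, blocks, limma 3.58.1 on mean log2(CPM + 1), at least 5 cells, thinning to 5000 counts, other denominators, TMM, and each experiment left out. Added after seeing the data were equal totals, each cluster alone, cells without a gene over 20% of counts, other spans and each antibody alone. On simulated data of the antibody comparison, 0% of genes changed 4-fold, 14.9% at 16-fold and 86.4% at 256-fold were recovered. Software was R 4.3.3, Python 3.11.15, scipy 1.17.1, numpy 2.4.6, matplotlib 3.10.9 and pandas 2.3.3. Genomic libraries were not analysed here.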

Additional observations from a re-analysis of the deposited data

Results flagged for a closer look

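In 26 groups of 4 to 10 experiments, the highest or lowest value was compared with the range of the group by Dixon's criterion, which chance meets in about 1 of 20 groups. It was met in 5 of them. The Mix cells of H3K27me3 experiment 3 held 12.3% of their counts on ribosomal protein genes, against 1.84% to 5.56% in the other H3K27me3 experiments. The same experiment had the lowest share on long genes in Mix and no higher share there than its Proxi and Dista cells. In H3K27me3 experiment 7, the share on ribosomal protein genes was lower in Mix than in the other cells by the widest margin, with a difference of -7.23 percentage points, against -2.90 to -1.38 in the other H3K27me3 experiments. These are shares of summed counts, and the median single cell of experiment 7 held 10.5% in Mix and 13.7% in the others.

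The median total count per Mix cell was 1208300 in H3K27me3 experiment 2, against 10138 to 425645 in H3K27me3 experiments 3 to 7. H3K27me3 experiment 1, left out of this group for having only 2 Mix cells, had 1171430. In H3K4me3 experiment 1, core pluripotency factors held 1.48% of the counts of its 3 Mix cells, against 0.0342% to 0.407% in the other H3K4me3 experiments. The Mix cells of H3K4me3 experiment 6 had a median of 4133 genes, against 1035 to 2150 in the other H3K4me3 experiments. The causes were not tested.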

How the results depend on the processing

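The lower share of Mix among proximal cells kept its direction in all alternatives run, with -15 to -9.44 percentage points without single experiments. It no longer passed without H3K27me3 experiment 6 or H3K4me3 experiment 1, 2 or 3, nor with all picked cells as the denominator (-4.17). The share of Mix sisters, which did not pass, turned its sign with at least 5 sisters of each kind (2.12) and without H3K4me3 experiment 1 (single experiments left out, -14.4 to 2.26). The share of Mix sisters of Proxi and Dista cells was 16.2 to 22.1 percentage points without single experiments and passed each time. Differences in long, silent and ribosomal protein shares kept their direction in all alternatives run.

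Genes higher in every experiment numbered 24, and 48 with TMM, 6 with the mean CPM of cells, 124 with at least 5 cells, 0 with cells thinned to 5000 counts, 102 in H3K27me3 and 115 in H3K4me3 experiments alone, 6 against Dista alone and 24 to 42 without single experiments. Genes lower in every experiment numbered 82, and 39 with TMM, 213 with at least 5 cells, 9 with thinned cells, 127 without the filter, 515 in H3K27me3 and 493 in H3K4me3 experiments alone, 27 against Proxi alone and 102 to 159 without single experiments. Fewer experiments or counts change these numbers by construction.

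Between positions, DESeq2 called 51 genes and edgeR without the filter 3. Without the replicate block, 0 were called, as with it. Between antibodies, where 27 genes were called, DESeq2 called 223, DESeq2 size factors in edgeR 45, edgeR without the filter 1587, sums of at least 5 cells 13, and 17 to 88 were called without single experiments. The replicate block on shared experiment numbers left 0 calls, but correlations of same-numbered experiments of 0.00360 to 0.202 do not show that the numbers pair them. The cause of these differences was not tested. Genes with few counts per sum were measured poorly.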

Other observations

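The share of Mix cells also differed along the plate. Over the 13 experiments, 26.7% of the 202 passing cells in plate columns 1 to 4 and 47.2% of the 178 in columns 5 to 12 were Mix. From the shares of Mix in the experiments that used these columns, 34.3% and 38.6% would be Mix. Within columns 5 to 8, Mix made up 45.7% and 38.7% of the proximal cells in columns 5 and 7, and 64.4% and 64.3% of the distal cells in columns 6 and 8. In columns 1 to 4 the values were 25.8% and 19.5% of proximal and 32.8% and 26.8% of distal cells. Columns 9 to 12, with 6 to 8 passing cells each, held 0%, 14.3%, 28.6% and 12.5% Mix. Columns stand for i7 indexes and for the order of picking or handling as far as a plate shows it, and these cannot be told apart. The split by column was chosen after its values were seen and has no test.

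The 42 genes whose records spread over more than 2500000 bp, mostly families with copies at several places, were left out of the classes by span. They held a median of 6.11% of the counts of Mix cells and 4.41% of those of the other cells, higher in Mix in 8 of 10 experiments.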
